A study of Drosophila melanogaster with 20 samples.

Results

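On the autosomal arms of larval salivary gland chromosomes, 187 windows of 50 kb showed an H3K27me3 value at least 0.5 lower on the log2(ChIP/input) scale in SuUR mutants than in wild type. They are 0.998% of the 18740 windows of arms 2L, 2R, 3L and 3R, and the profiles hold 27631 windows in all. The pericentric ends of 2L and 3L were left out, so that the last window centres used are 21995000 on 2L and 22895000 on 3L (BDGP R5/dm3 coordinates). The members were chosen by the H3K27me3 values of the profiles described here. Their H3K27me3 values are therefore given as a description, and the H3K27me2 values and the position of the windows are the measures that the choice did not use. A difference is always SuUR mutants minus wild type.

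The glands came from 3rd instar larvae of SuUR mutants and of the wild type strain y,w, both reared at 23 °C, and the labels give 20 pairs of glands as starting material. H3K27me3 was precipitated with the CST #9733 antibodies, and H3K27me2 with antibodies from Millipore. Each of the 4 profiles combines 1 ChIP library with 1 input library and gives a value every 5 kb. Separate replicates cannot be distinguished in the profiles, and the differences carry neither an error nor a p-value. The genotypes share 1 distribution of values within each antibody, because the profiles had been quantile normalized, and a change of the whole genome cannot be seen in them. Read numbers are not given with the profiles, so the depth behind a window is unknown. Neighbouring windows share most of their sequence and are not replicates.

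In salivary gland cells the chromosomes become polytene through repeated rounds of replication without division. SUUR is a chromatin protein that slows replication forks in late-replicating, repressed regions, and in its presence some of these regions stay under-replicated, with fewer DNA copies than the rest of the chromosome. H3K27me3 is the repressive mark laid down by the Polycomb complex PRC2, and H3K27me2, made by the same enzyme, is spread much more widely over inactive chromatin. The study divided H3K27me3-rich regions into SuUR-sensitive regions (SSRs) and non-sensitive regions (SNRs), which match domains bound by Polycomb. These lists had been derived from earlier ChIP-chip profiles of the same genotypes with other antibodies, so the SSR list is a separate experiment but rests on the same kind of contrast as the members. The list of under-replicated regions combines earlier measurements of DNA copy number.

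The direction of the members was the rarer one on the arms. Windows higher in SuUR mutants by at least 0.5 numbered 948, or 5.06% of arm windows, and the median H3K27me3 difference of all arm windows was 0.085. This imbalance depended on the scaling, since quantile normalization over 2L, 2R, 3L, 3R and X gave 374 lower and 430 higher windows and a median of 0.0225. A difference below 0 was found in 35% of arm windows. The lowest difference among the members was −1.515, and their median was −0.66. At the threshold, 9 members had the smallest difference, −0.505, among them those with centres 5635000, 14790000 and 21450000 on 2L. The nearest windows outside were 4 with −0.495, among them 840000 on 2R and 13830000 and 13845000 on 3L. A window at 14790000 with −0.18 in SuUR mutants and 0.325 in wild type was a member, and one at 840000 with −0.17 in SuUR mutants and 0.325 in wild type was not.

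Consecutive centres merged into 47 runs. Of these, 24 consisted of a single centre, while 11 runs of at least 5 centres held 123 of the members and 6 runs of at least 10 centres held 89. Runs whose windows share sequence fell into 31 groups, and the 3 groups with most members accounted for 73 windows, or 39.0%. By arm, 79 members lay on 2L (1.80% of its windows), 64 on 2R (1.52%), 30 on 3L (0.656%) and 14 on 3R (0.251%). On 2L, 62 of the 79 members belonged to 6 neighbouring groups with centres between 14790000 and 17785000. Pooled over the arms, members were closer to the pericentric ends than arm windows in general, with a median distance of 5.62 Mb against 12.35 Mb. Within 2 Mb of the pericentric end lay 15.0% of the members and 5.88% of all arm windows. All members within 2 Mb were on 2L and 2R, and the pooled values do not hold for chromosome 3. Distances were counted from the end of all windows of an arm, including the stretches left out on 2L and 3L. Most of the last 2 Mb of 3L, and part of that of 2L, could therefore hold no member. The nearest member stood at 5.94 Mb on 3L and at 3.475 Mb on 3R.

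**Figure D1:**
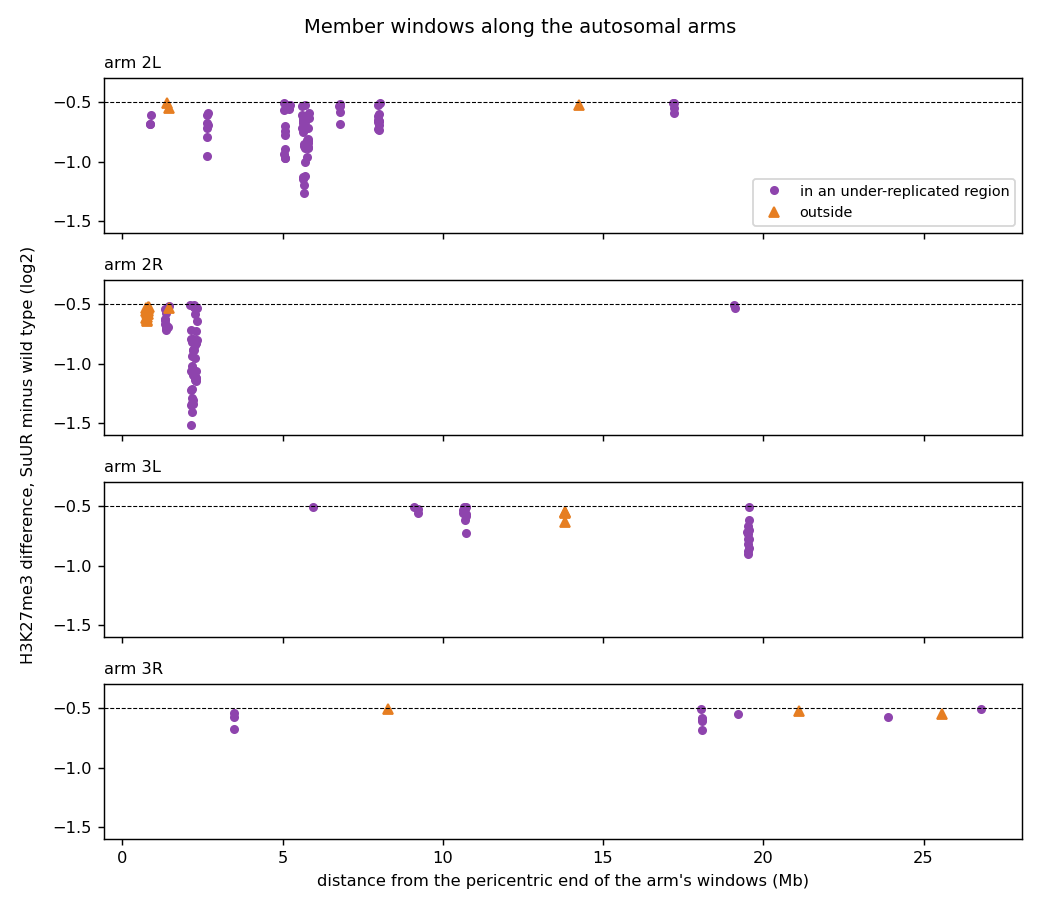
Each point is a member window, placed by its distance in Mb from the pericentric end of the windows of its arm (horizontal axis) and by its H3K27me3 difference, SuUR mutants minus wild type, in log2 units (vertical axis). Circles lie in an under-replicated region and triangles outside, the dashed line marks −0.5, and the lowest points, down to −1.515, form a single column on 2R.

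By the values that chose them, most members were windows of high H3K27me3 in wild type. In SuUR mutants their H3K27me3 had a median of −0.18 (from −0.625 to 0.74), and in wild type a median of 0.495 (from −0.105 to 1.725). All arm windows had a median of −0.035 in SuUR mutants and −0.10 in wild type. The median member thus stood at percentile 26.4 of arm windows in SuUR mutants and at percentile 93.9 in wild type. The SuUR value was below 0 in 157 of the members and the wild type value above 0 in 183. Both held for 153 members, or 81.8%, against 9.14% of all arm windows. The choice of members favours this combination, so these shares and percentiles are a description only. Within the lowest 10% of arm windows in SuUR mutants fell 50 members, and 146 belonged to the top 10% in wild type.

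The length of a run follows from the H3K27me3 values by its definition, and the levels by length are a description only. The 11 runs of at least 5 centres had a median of −0.19 in SuUR mutants and 0.60 in wild type, and the 24 runs of 1 centre a median of −0.28 in SuUR mutants and 0.24 in wild type. Averaged over the 13 groups with at least 5 members, the profile in wild type formed a peak that the profile in SuUR mutants lacked. The groups were chosen by this difference, so the H3K27me3 excess of wild type around their middle follows largely from the choice. At the middle of the groups it stood at −0.18 in SuUR mutants and at 0.50 in wild type. At 200 kb before the middle, the values were −0.14 in SuUR mutants and −0.062 in wild type, and at 200 kb after it −0.084 in SuUR mutants and −0.11 in wild type. The H3K27me2 values at the middle were 0.080 in SuUR mutants and 0.18 in wild type.

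**Figure D2:**
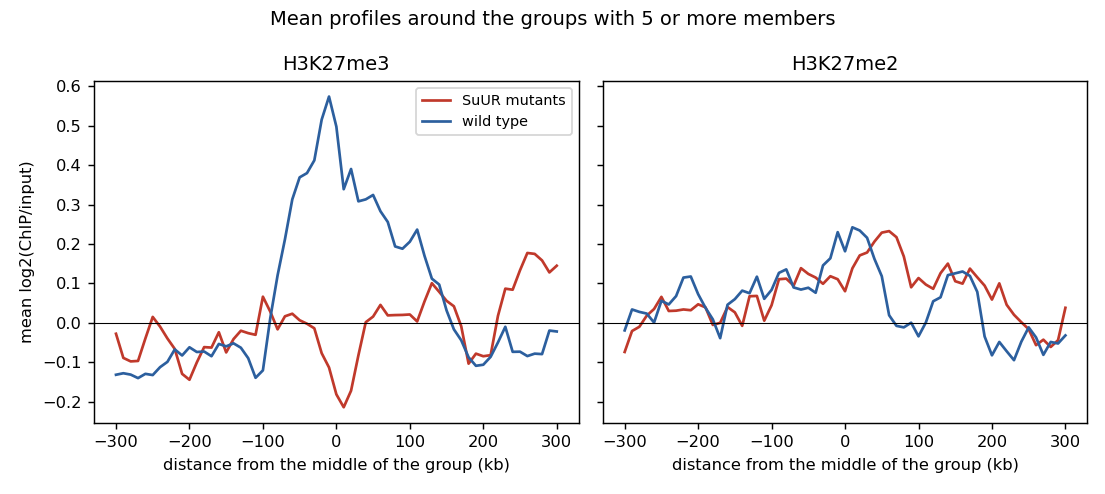
Mean log2(ChIP/input) of H3K27me3 (left) and H3K27me2 (right) over the 13 groups of runs with at least 5 members, against the distance in kb from the middle of the group. The wild type H3K27me3 line peaks around the middle, where the SuUR line stands at −0.18, a gap that the choice of groups favours. Both H3K27me2 lines are low humps that cross each other.

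The lowest differences lay on 2R, in a group of 39 members with centres from 2150000 to 2355000. The run of 21 centres from 2150000 to 2250000 averaged −0.20 in SuUR mutants (from −0.495 to 0.38) and 0.86 in wild type (from 0.01 to 1.725), a mean difference of −1.07. Its lowest window, at 2180000, had −0.485 in SuUR mutants and 1.03 in wild type. The run of 14 centres from 2290000 to 2355000 averaged −0.022 in SuUR mutants (from −0.23 to 0.195) and 0.90 in wild type (from 0.44 to 1.305). The levels varied along the sequence in both genotypes. Between them lay a run of 4 centres and, at 2255000 and 2260000, a pair of windows with the opposite sign, chosen for mention after their values were seen. These had −0.58 and −0.505 in SuUR mutants and −1.075 at both centres in wild type. The wild type value therefore changed by 1.8 between the neighbouring centres 2250000 and 2255000, the second largest H3K27me3 step of wild type on the arms.

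H3K27me2 went the other way in this group. The run from 2150000 to 2250000 averaged 0.245 in SuUR mutants and −0.034 in wild type, with 20 of 21 windows higher in SuUR mutants. The run from 2290000 to 2355000 averaged 0.46 in SuUR mutants and 0.22 in wild type, with 11 of 14 windows higher. The 4 centres between, from 2265000 to 2280000, had the highest mean H3K27me2 difference of all runs, 0.59. All 39 members of the group lay in the under-replicated region from 2140000 to 2385000, of whose 50 window centres they form 78.0%. No SSR contains them.

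A second concentration lay on 2L around 17 Mb, where an SSR from 16920070 to 17364809 held 32 members. The longest run of all, 22 centres from 17115000 to 17220000, averaged 0.013 in SuUR mutants (from −0.125 to 0.19) and 0.83 in wild type (from 0.57 to 1.19). The neighbouring run of 10 centres from 17015000 to 17060000 averaged −0.19 in SuUR mutants and 0.60 in wild type. H3K27me2 differed in sign between these runs. In the longer run it averaged 0.14 in SuUR mutants and −0.025 in wild type, and in the shorter one 0.14 in SuUR mutants and 0.30 in wild type. A run of 8 centres from 17740000 to 17775000, in the next SSR, averaged 0.0575 in SuUR mutants and 0.88 in wild type for H3K27me3. Its H3K27me2 was −0.14 in SuUR mutants and 0.24 in wild type, lower in SuUR mutants in 7 of 8 windows.

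The other long runs of 2L and 2R had moderate levels in wild type. On 2L, the 10 centres from 14815000 to 14860000 averaged −0.41 in SuUR mutants and 0.25 in wild type, and the 7 centres from 20165000 to 20195000 averaged −0.22 in SuUR mutants and 0.49 in wild type. On 2R, the 8 centres from 1355000 to 1390000 averaged −0.195 in SuUR mutants and 0.45 in wild type. This last run carried much H3K27me2 in both genotypes, 0.37 in SuUR mutants and 0.465 in wild type. Its H3K27me2 difference was −0.0975, and that of the runs at 14815000 and 20165000 on 2L was −0.13 and −0.024. The run at 1355000 lies in the SSR at the pericentric end of 2R, from 18710 to 1536949, which held 23 members, or 7.59% of its window centres.

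On chromosome 3, the run of 12 centres from 4950000 to 5005000 on 3L was lower in SuUR mutants in both marks. Its H3K27me3 averaged −0.098 in SuUR mutants (from −0.215 to 0.095) and 0.65 in wild type (from 0.35 to 0.84). Its H3K27me2 averaged −0.12 in SuUR mutants (from −0.265 to −0.015) and 0.35 in wild type (from 0.095 to 0.57), and all 12 windows were lower in SuUR mutants. The run of 6 centres from 13785000 to 13810000 on 3L showed the reverse in H3K27me2. There H3K27me3 averaged −0.29 in SuUR mutants and 0.29 in wild type, whereas H3K27me2 averaged 0.15 in SuUR mutants and −0.20 in wild type, higher in SuUR mutants in all 6 windows. On 3R the longest run had 4 centres, from 18105000 to 18120000, with −0.41 in SuUR mutants and 0.21 in wild type. Its H3K27me2 hardly differed, with 0.19 in SuUR mutants and 0.17 in wild type.

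**Figure D3:**
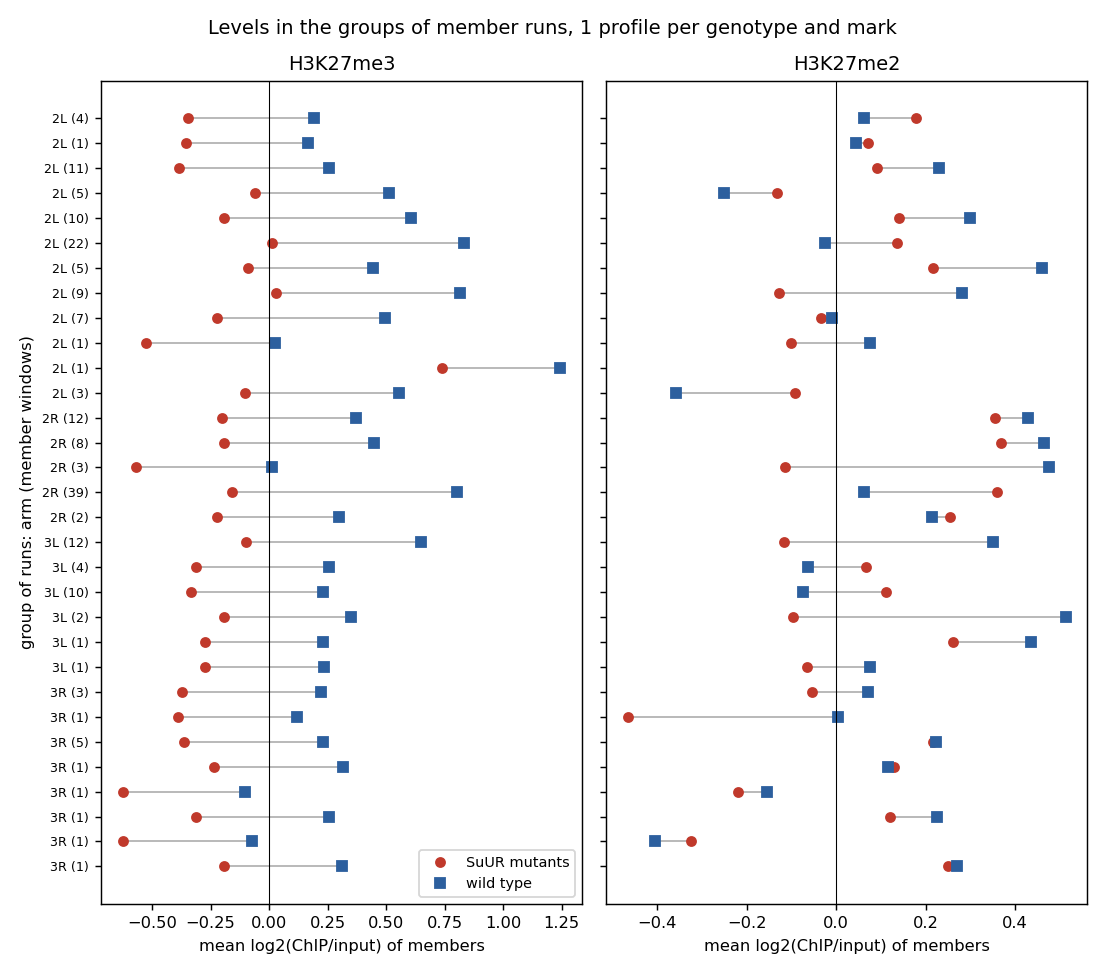
Mean log2(ChIP/input) of the member windows in each of the 31 groups of runs, for H3K27me3 (left) and H3K27me2 (right), with SuUR mutants as circles and wild type as squares. Rows give the arm and the number of member windows. In H3K27me3 the circle stands left of the square in every row, as the choice of members requires, whereas in H3K27me2 it does so in 19 of 30 rows, and 1 group has no H3K27me2 value.

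Taken over all members, H3K27me2 did not move in 1 direction. A value was given for 186 of the windows, with a median of 0.155 in SuUR mutants (from −0.465 to 0.715) and 0.165 in wild type (from −0.83 to 0.835). All arm windows had a median of −0.005 in SuUR mutants and 0.00 in wild type, and the median member stood at percentile 77.5 of arm windows in SuUR mutants and 78.4 in wild type. Other windows of the same regions were also above the middle. SSR windows that are no members stood at percentile 67.9 in SuUR mutants and 74.7 in wild type, and under-replicated windows that are no members at 66.3 in SuUR mutants and 71.5 in wild type. The median difference of the members was 0.005, and 92 of them, or 49.5%, were below 0, against 49.9% of all arm windows. The other 94 were above 0, or 50.5%, against 49.2% of all arm windows. Their spread was wider, with an SD of 0.33 over members and 0.225 over all arm windows. At −0.5 or less stood 14 members, or 7.53%, against 1.39% of arm windows, and at 0.5 or more stood 11, or 5.91%, against 1.49%. These windows overlap and are not separate cases. Of the 30 groups of runs with a value, 2 had a mean H3K27me2 difference of −0.5 or less and 0 had one of 0.5 or more.

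**Figure D4:**
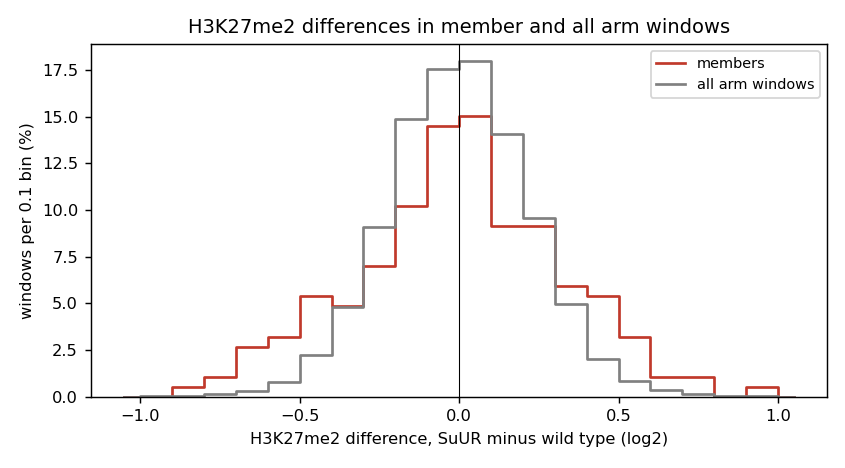
Share of windows in percent per 0.1 bin of the H3K27me2 difference, SuUR mutants minus wild type in log2 units, for the members with a value (186) and for all arm windows. Both distributions are centred near 0, with medians of 0.005 and 0.00, and the one of the members is broader on either side.

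The balance of signs rested on the large group on 2R. Without its 39 windows, which is an alternative chosen after seeing the data, 59.9% of the members were lower in H3K27me2 in SuUR mutants, and the median difference was −0.06. These values were close to those of SSR windows that are no members, of which 59.2% were below 0 with a median of −0.055. With each group of runs counted once, likewise added afterwards, this share came to 63.3%. Members inside SSRs had a median H3K27me2 of 0.105 in SuUR mutants and 0.205 in wild type. Members outside SSRs, 39 of 44 of which belong to the group on 2R, had 0.34 in SuUR mutants and 0.045 in wild type. By arm, the median H3K27me2 difference was −0.02 on 2L, 0.105 on 2R, −0.22 on 3L and −0.0475 on 3R. The runs with a mean H3K27me2 difference of −0.5 or less numbered 6, each of 1 or 2 centres, and 3 of them were the single centres 1460000, 1485000 and 1495000 on 2R. The first of these had −0.63, the lowest of the 3.

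The wild type profiles were less smooth in the members. H3K27me3 values chose the members, so the H3K27me3 steps, and the step counts over all 4 profiles, are a description only. The H3K27me2 steps were not used by the choice. Between neighbouring centres, the 90th percentile of the H3K27me3 steps was 0.15 in members and 0.155 in all arm windows for SuUR mutants, and 0.22 in members and 0.125 in all arm windows for wild type. For H3K27me2 it was 0.15 in members and 0.14 in all arm windows for SuUR mutants, and 0.26 in members and 0.115 in all arm windows for wild type. In under-replicated windows that are no members, this percentile of wild type was 0.12 for both marks. A step of at least 0.2 in any of the 4 profiles touched 77 members, or 41.2%, against 16.3% of all arm windows. Without these windows, an alternative chosen after seeing the data, 110 members were left, with a median H3K27me3 of −0.21 in SuUR mutants and 0.38 in wild type. The part of uneven wild type profiles in the differences was not tested.

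Most members lay in under-replicated regions. The centre of 164 members, or 87.7%, fell inside such a region, against 22.3% of all arm windows. Members made up 3.92% of the under-replicated windows and 0.158% of the windows elsewhere on the arms. The windows higher in SuUR mutants did not share this placement, with 4.20% of under-replicated windows and 5.30% of those elsewhere. H3K27me2 differences past 0.5 were also more frequent in under-replicated windows, in both directions. Windows lower in SuUR mutants in H3K27me2 made up 2.48% of under-replicated windows and 1.08% of those elsewhere. For windows higher in H3K27me2, the shares were 2.34% and 1.24%. Within under-replicated regions the members were found towards the middle. On a scale with 0 at the edge and 1 at the middle, their median was 0.67 against 0.48 in other under-replicated windows, and 74.4% of members were closer to the middle than to the edge against 48.4%. The members were pooled as overlapping windows, 39 of them from the single group on 2R, and regions were not weighed equally. Only 19 of the 81 under-replicated regions of the arms held a member, or 23.5%. These had a median length of 372 kb, against 189 kb for regions without one. Longer regions have more windows and so more occasions to hold a member, which was not adjusted for. Under-replicated windows that are no members had a median H3K27me3 of 0.08 in SuUR mutants and 0.07 in wild type. Their median difference was 0.035, with 44.4% below 0, against 0.085 and 35% for all arm windows. Under-replicated regions differ between the genotypes in DNA copy number, and its part in the H3K27me3 difference was not tested.

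SSRs contained 143 of the members, or 76.5%, against 26.0% of all arm windows. Conversely, 20 of the 148 SSRs on the arms held a member, or 13.5%, with a median length of 273 kb against 103 kb for those without. Here too the number of windows per region was not adjusted for. Without the group on 2R, the share of members in SSRs was 96.6%. SSR windows that are no members had a median H3K27me3 of 0.035 in SuUR mutants and 0.02 in wild type. Their median difference was 0.03, with 44.6% below 0, against 0.085 and 35% for all arm windows. Members formed 2.93% of the arm windows of SSRs. Both lists together contained 125 members, 39 lay only in an under-replicated region and 18 only in an SSR. The windows in neither list numbered 12723, and 5 of them were members, or 0.0393%.

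No member centre lay in an SNR, of which the arms hold 125, although 5.81% of arm windows did. The study had defined SNRs as insensitive to the SuUR mutation, so their lack of members rests on the same kind of contrast. In SNR windows the median H3K27me3 was 1.04 in SuUR mutants and 0.84 in wild type, and their lowest difference was −0.48. Of windows that touch an SNR by at least 1 bp, 1 was a member.

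**Figure D5:**
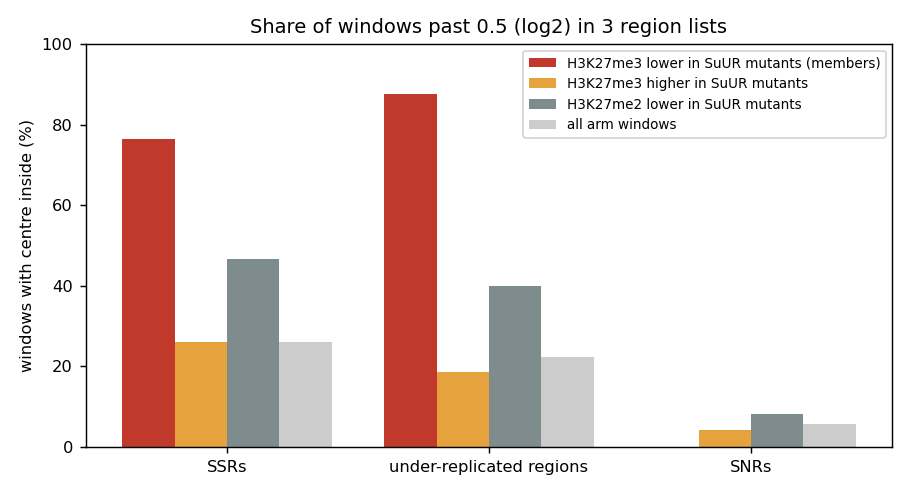
Share of window centres in percent inside SSRs, under-replicated regions and SNRs for members, for windows at least 0.5 higher in SuUR mutants, for windows with H3K27me2 at least 0.5 lower in SuUR mutants and for all arm windows. The members stand at 76.5%, 87.7% and 0%, and all arm windows at 26.0%, 22.3% and 5.81%. The windows lower in H3K27me2 stand at 46.7%, 39.8% and 8.05%.

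The 5 members in neither list were single windows, named here after their values were seen. They had their centres at 21385000 and 21450000 on 2L and at 8320000, 21135000 and 25595000 on 3R. On 3R, the windows at 21135000 and 25595000 had −0.625 each in SuUR mutants and −0.105 and −0.075 in wild type, so both genotypes were below 0. The window at 21450000 on 2L had the highest SuUR value of all members, 0.74, against 1.245 in wild type, and no H3K27me2 value. It follows the largest step of the wild type H3K27me3 profile on the arms, 3.045, between −1.8 at 21440000 and 1.245 at 21445000.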

How the data were processed

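ChIP-seq profiles of H3K27me3 and H3K27me2 in salivary glands were used. The reads had been mapped to BDGP R5/dm3 with MOSAIK, and RPM values were calculated for ChIP and input. The authors deposited log2(ChIP/input) for 50 kb windows every 5 kb, quantile normalized. The methods mention biological replicates of ChIP-seq, but whether these gland profiles pool several is not given in the sources used here, and the depth is unknown. The 12 embryo libraries were not analysed here.

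Windows were placed by their centre, and 3 region lists of the study's supplement were compared with these centres. Consecutive centres formed a run, and centres up to 50 kb apart a group of runs. The members and the choice of comparisons were set with earlier results of these data known. The runs described singly were the 10 with most centres, the longest of each arm and the run with the lowest window. Genes and sequences were not placed, because no dm3 annotation was used. Other thresholds, scalings and overlaps were tried. The detection of windows and runs was tested on simulated data. The tools were pandas 2.3.3, scipy 1.17.1 and numpy 2.4.6 in Python 3.11.15.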

Additional observations from a re-analysis of the deposited data

How the results depend on the processing

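No paired analysis was possible because each genotype and mark has 1 profile, in which no replicates can be told apart or left out. Values were taken as unmoved within 0.1 for log2 medians, within 1.5 times for counts and within the 95% exact binomial interval for shares, which treats windows as independent, and 70 of 102 values were. The main values were 187 members, 47 runs and 87.7% of members in under-replicated regions. A threshold of −0.4 gave 384 members in 119 runs, a wild type median of 0.3 and 72.9% in under-replicated regions, and −0.6 gave 116 members in 20 runs, 0.675 and 95.7%. Quantile normalization over 2L, 2R, 3L, 3R and X gave 374 members in 113 runs, among them all 187, with 73.5% in under-replicated regions and 2.14% in SNRs. Subtracting the arm median gave 343 members in 103 runs, a wild type median of 0.315 and 75.8%. Selection by percentile ranks gave 81 runs, medians of −0.28 in SuUR mutants and 0.195 in wild type and 71.7%, and 98 of the 187 were kept. Every 10th centre left 19 members, with 26.3% within 2 Mb of the pericentric end. Without these 2 Mb the under-replicated share was 94.97%, and merging over 50 kb gave 31 runs. Of the alternatives chosen after seeing the data, leaving out steps of 0.2 left 110 members, with a wild type median of 0.38 and 82.7% in SSRs. Leaving out the group on 2R gave 96.6% in SSRs and 59.9% lower in H3K27me2. Counting each group once gave a wild type median of 0.30, 63.3% lower in H3K27me2 and 74.2% in under-replicated regions. The unknown depth and the single library of each kind limit every value.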
